A study of Mus musculus with 9 samples.

Results

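The 45 genes described here are the subunits, assembly chaperones and activators of the proteasome, as measured by bulk RNA sequencing of mouse hepatic stellate cells. They were chosen by name from the 35024 genes of the deposited table, as every gene whose symbol begins with Psma, Psmb, Psmc, Psmd or Psme followed by a digit. Of 49 matching names, 4 were dropped as pseudogenes (Psmb5-ps, Psmb6-ps, Psmb6-ps2 and Psmb7-ps2), and none of the rest was at the lowest value in more than 5 libraries. The 45 members comprise 8 genes of the core alpha ring, 7 standard genes of the core beta ring, 20 genes of the cap, 5 immunoproteasome genes and 5 others (Psmb11, Psmc3ip, Psme2b, Psme3 and Psme4). All 45 exceeded the lowest value in 4 or more libraries and entered every test. Psmc3ip matched by its symbol only, since it encodes a partner of the meiotic recombinases and no proteasome subunit.

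The proteasome degrades proteins tagged with ubiquitin inside a barrel built from alpha and beta rings, and a cap made of a base of ATPases and a lid recognises, strips and unfolds the substrate. Interferons induce alternative catalytic subunits, Psmb8, Psmb9 and Psmb10, which take the places of Psmb5, Psmb6 and Psmb7 and alter which peptides reach major histocompatibility complex class I, together with the activator formed by Psme1 and Psme2. Hepatic stellate cells store vitamin A, and in injured liver they turn into the myofibroblasts that lay down scar matrix.

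The YAP-deleted mice carried floxed Yap1 (YAP f/f) together with LratCre, a Cre driven by the promoter of a gene active in stellate cells, and are labelled YAP ko (4 libraries, LYT006, LYT008, LYT013 and LYT016). The controls were YAP f/f without LratCre (5 libraries, LYT004, LYT005, LYT014, LYT015 and LYT017). All mice were on a C57BL/6J background and received 6 injections of carbon tetrachloride (CCl4), a liver toxin, spaced 3 days apart. At 2 days from the final injection the cells were enriched by density centrifugation and sorted on the fluorescence of their retinoids. The effect of carrying Cre and that of losing Yap1 cannot be told apart, and no library from uninjured liver was analysed here. No source used here gives the age of the mice or says that the libraries are of different mice. The p-values therefore reflect variation between libraries, which may be technical.

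The targeted gene went against the label in 2 libraries. Yap1, the transcriptional coactivator restrained by the Hippo pathway, had 642, 648 and 645 normalised counts in the YAP-deleted libraries LYT006, LYT008 and LYT016 and 2530 in the library labelled YAP-deleted LYT013. It had 2902, 2915, 3653 and 3551 in the control libraries LYT004, LYT005, LYT015 and LYT017, and 618 in the library labelled control LYT014. The difference in level, YAP-deleted minus control, was -1.30 over the 9 libraries (SE 0.54, limma adjusted p = 0.649) and -2.22 over the 7 libraries without LYT013 and LYT014 (SE 0.10, limma adjusted p = 8.97e-05). No library was moved to another group. The comparisons of all members, of each class and of the ratios are given over the 9 libraries as labelled and over those 7. Single genes and other lists are in part given over the 7 only, and the 2 libraries left out are shown apart. The recovered depth was 14052502 to 31816055 counts per library, and LYT013 was the deepest. All 9 stellate cell markers were detected in every group, with sums of 526883 to 721374 normalised counts in the YAP-deleted group and 496231 to 701415 in the control group.

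Levels per length are given as a length-scaled share of each library (TPM) computed from the recovered counts and annotated transcript lengths, as the median of the 7 libraries. The class medians were 97.9 TPM for the alpha ring, 130 TPM for the standard beta ring, 78.6 TPM for the cap and 106 TPM for the immunoproteasome. The standard beta ring genes lay between 96.6 TPM for Psmb5, the chymotrypsin-like subunit, and 189 TPM for Psmb6, the caspase-like subunit. Psmb7, the trypsin-like subunit, stood at 102 TPM. In the alpha ring, which gates the barrel, 7 genes lay between 54.5 TPM (Psma3) and 129 TPM (Psma7), whereas Psma8, the form used in testis in place of Psma7, was at 5.63 TPM. These values depend on the annotation, in which the transcripts of Psma2 and Psma3 are annotated at 2911 and 2846 bases and those of the other ring members except Psma8 at 914 to 1239 bases.

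In the cap, the 6 ATPases ranged from 70.7 TPM (Psmc6) to 158 TPM (Psmc3). The base scaffolds Psmd1 and Psmd2 stood at 72.1 and 105 TPM, and the ubiquitin receptor Psmd4 at 107 TPM. The 8 lid genes ran from 45.2 TPM for Psmd14, the deubiquitinase of the lid, to 109 TPM for Psmd7, its inactive partner. The chaperones Psmd5, Psmd9 and Psmd10, which help to build the base and are absent from the finished particle, were scarcer, at 15.5, 22.0 and 14.2 TPM. Among the immunoproteasome genes Psme1 was highest at 170 TPM, followed by Psmb10 at 123 TPM, Psme2 at 106 TPM, Psmb8 at 75.3 TPM and Psmb9 at 46.9 TPM. The 3 highest members, Psmb6, Psme1 and Psmc3, had overlapping ranges over the 7 libraries, at 157 to 203, 142 to 177 and 145 to 173 TPM. Within each of those libraries Psmb6 stood above Psmc3. The lowest members were Psmb11, the thymic beta subunit, at 0.299 TPM, Psmc3ip at 3.85 TPM, Psma8, and Psme2b at 5.73 TPM. The nuclear activator genes Psme3 and Psme4 stood at 54.8 and 31.6 TPM.

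The spread of the subunits among the 7 libraries was small beside the departure of LYT013. On the deposited log2-like scale, on which the values below called levels are given, the standard deviation over 7 libraries was between 0.076 and 0.350, with a median of 0.132 over the members. The smallest belonged to Psmb1 and the largest to Psmc3ip. Over all 9 libraries the median standard deviation was 0.278. LYT013 stood apart, and in it the mean level of each of the 4 classes lay above the range of the 7.

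**Figure D1:**
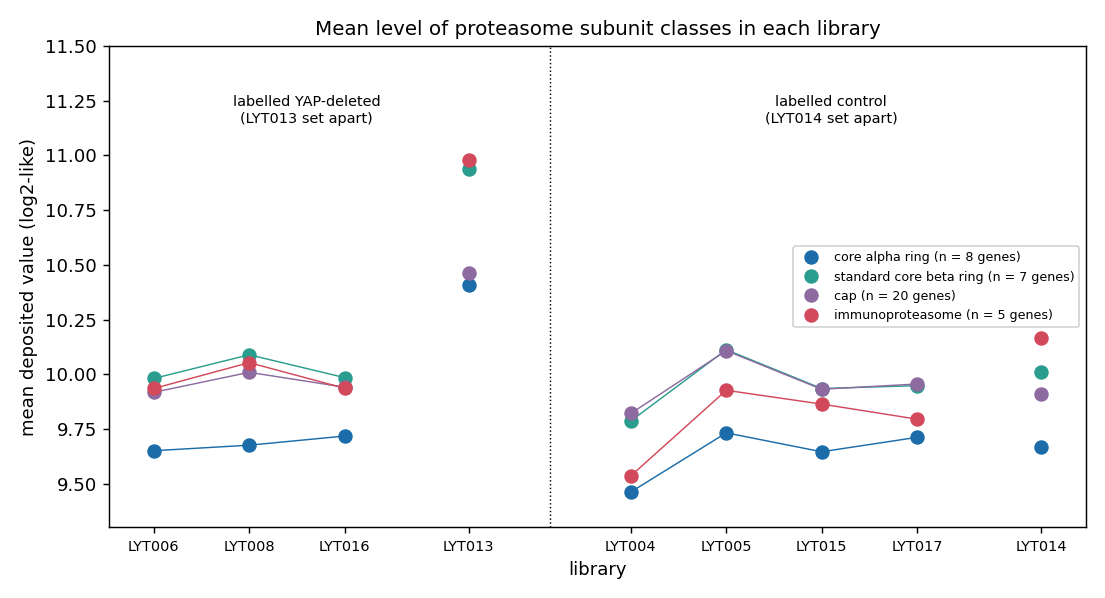
Mean deposited value (log2-like) of the genes of each class in each library, with the libraries labelled YAP-deleted left of the dotted line and those labelled control right of it; lines join the libraries of a group other than LYT013 and LYT014. All 4 class means are highest in LYT013 (10.41 to 10.98), and in LYT014 only the immunoproteasome mean (10.16) lies above the range of the 7 libraries.

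No proteasome gene differed between the YAP-deleted and control groups at an adjusted p of 0.05 by limma, a linear model with moderated errors, over the 9 libraries as labelled or over the 7. Over 9 libraries, 0 of 45 members were called, where 0 of 17203 genes tested (0%) were called, and the smallest adjusted p among the members was 0.649. At an unadjusted p under 0.05 there were 2 members and 1242 of all genes, and voom (limma, on recovered counts) also called 0 genes, with 3 members at that unadjusted level. The median difference of the members, YAP-deleted minus control, was 0.20, with 38 positive and 7 negative, against a median of -0.0045 over all genes. That median rested on LYT013, without which it was 0.041. Adjusting for the mean level of the cytosolic ribosomal proteins brought it to -0.0016. That mean was 12.48 in LYT013, 11.42 in LYT014 and 11.36 to 11.56 in the 7 libraries. The adjustment therefore cannot be told apart from leaving LYT013 out.

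Over the 7 libraries, 0 of 45 members were called, where 11 of 16372 genes (0.0672%) were, and the smallest adjusted p of a member was 0.720. The median difference was 0.042, with 27 members positive and 18 negative. 1 member, Psmb9, had an unadjusted p under 0.05, as did 1050 of all genes, and limma voom called 0 members. Within the libraries coded 4 to 8, which include neither LYT013 nor LYT014, the members' median difference was 0.073. Within those coded 13 to 17, which include both as labelled, it was 0.368. The labels do not say what the codes stand for.

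Counts of genes with no overlap between groups gave little either way. Over 9 libraries no member had every YAP-deleted library above every control library, where 1.69% of all genes did, and none had every one below, where 1.15% did. Over the 7 libraries 2 members, Psmb9 and Psmb10, were above in every YAP-deleted library, which is 4.44% of the members against 3.93% of all genes. None was below in every one, against 3.66% of all genes. The members' share was therefore close to that of all genes.

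**Figure D2:**
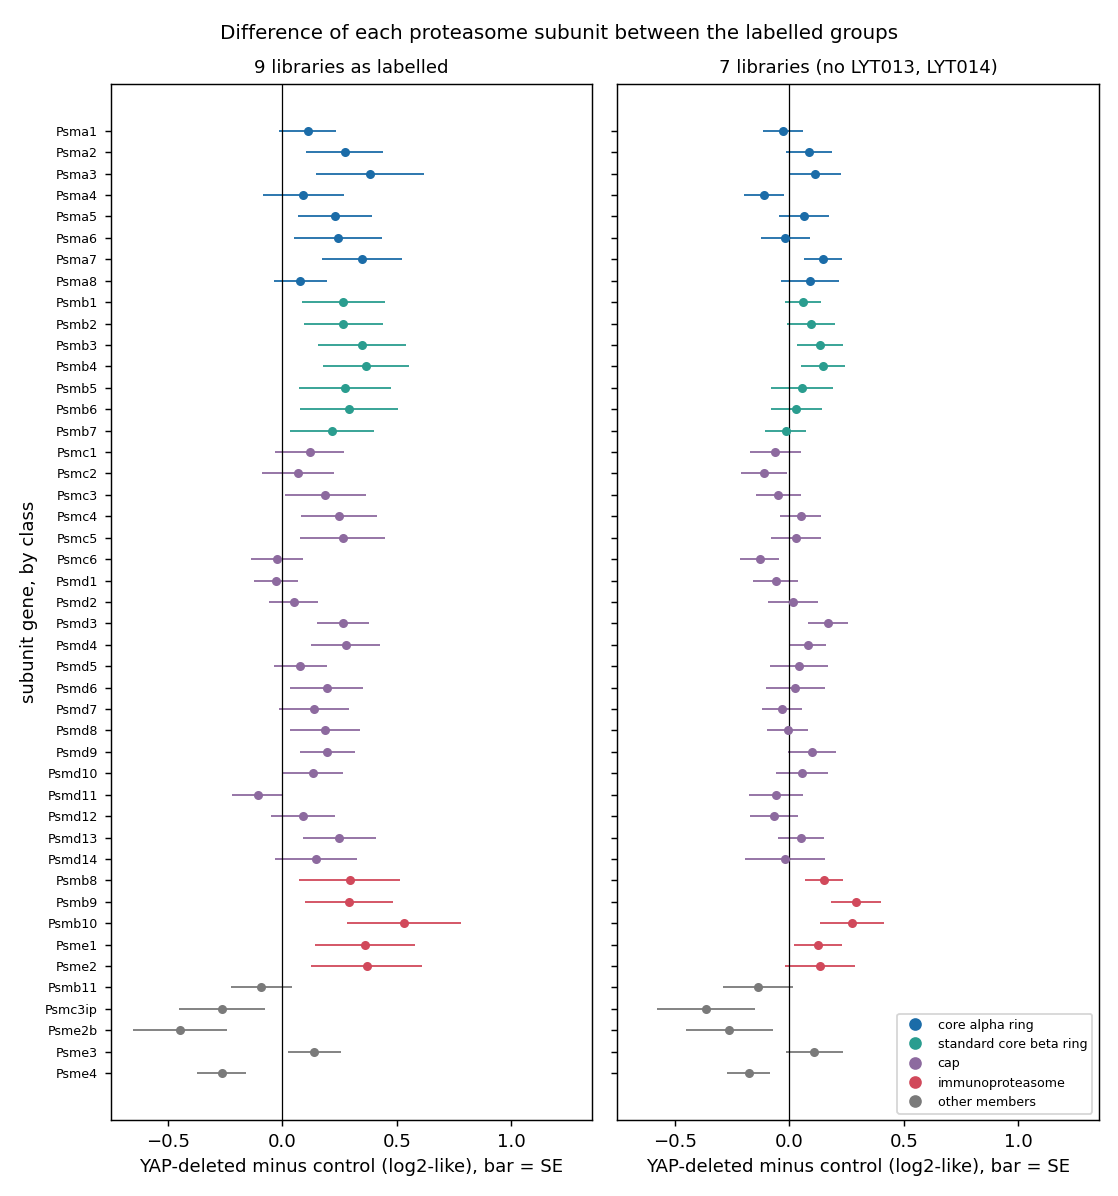
Difference in level of each of the 45 genes, YAP-deleted minus control, with its standard error (bar), over the 9 libraries as labelled (left) and the 7 libraries without LYT013 and LYT014 (right), coloured by class. The 9-library differences centre on 0.20 and the 7-library differences on 0.042, and the 5 immunoproteasome genes are positive in both, with 0 genes past the threshold in either.

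No gene of the core rings separated the groups, over the 9 libraries or over the 7. Mean levels over the 8 alpha genes were 9.65, 9.68 and 9.72 in the YAP-deleted libraries LYT006, LYT008 and LYT016, against 9.46, 9.73, 9.65 and 9.71 in the control libraries LYT004, LYT005, LYT015 and LYT017. The median difference over the alpha genes was 0.24 with 9 libraries (8 of 8 positive) and 0.076 with 7 (5 positive, 3 negative). Psma7 had the largest 7-library difference in the ring, with levels of 9.90, 10.02 and 9.88 in the YAP-deleted libraries, against 9.72, 9.91, 9.78 and 9.73 in control. The groups overlapped, and the difference was 0.15 (SE 0.084, limma adjusted p = 0.818).

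Of the 7 standard beta genes, 7 had a positive difference over 9 libraries (median 0.27) and 6 over 7 libraries (median 0.061). The 3 standard catalytic subunits had 7-library differences of 0.056 (Psmb5), 0.031 (Psmb6) and -0.015 (Psmb7). Psmb5 averaged 9.42 ± 0.11 in YAP-deleted and 9.37 ± 0.24 in control libraries (SD, n = 3 and 4). Psmb6 averaged 10.16 ± 0.049 in YAP-deleted and 10.13 ± 0.19 in control. Psmb7 averaged 9.84 ± 0.075 in YAP-deleted and 9.85 ± 0.11 in control. Control LYT004 was low for Psmb5 (9.01) and Psmb6 (9.85), and it held the lowest mean of each core class among the 7 libraries.

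The cap did not separate the groups either. Its 20 genes had mean levels of 9.92, 10.01 and 9.94 in the YAP-deleted libraries LYT006, LYT008 and LYT016 and of 9.82, 10.11, 9.93 and 9.96 in the control libraries LYT004, LYT005, LYT015 and LYT017. Over 7 libraries 10 genes were positive and 10 negative, with a median difference of 0.0045. Over 9 libraries 17 were positive and 3 negative, with a median of 0.14. Psmd3, a scaffold of the lid, had the largest 7-library difference in the cap, with levels of 10.71, 10.75 and 10.65 in the YAP-deleted libraries, against 10.48, 10.68, 10.56 and 10.42 in control. Control LYT005 lay inside the YAP-deleted range, and the difference was 0.17 (SE 0.086, limma adjusted p = 0.793). Psmc6 lay furthest in the other direction over 7 libraries, at -0.13 (SE 0.084, limma adjusted p = 0.840).

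Psmd14 was the most variable gene of the cap over the 7 libraries. It stood at 8.90, 9.28 and 9.18 in the YAP-deleted libraries LYT006, LYT008 and LYT016, and at 9.24, 9.52, 8.83 and 8.97 in the control libraries LYT004, LYT005, LYT015 and LYT017. The 3 highest values belonged to LYT008 of the YAP-deleted group and LYT004 and LYT005 of the control group. The same 3 libraries had the highest Mki67, a marker of cycling cells, at 11.86 in YAP-deleted LYT008 and 12.30 and 12.67 in control LYT004 and LYT005, where the other 4 libraries lay between 7.47 and 8.12. Psmc3ip ran likewise, at 6.51 in YAP-deleted LYT008 and 6.68 and 7.14 in control LYT004 and LYT005, against 6.04 to 6.45 in the other 4. The part of cycling in these values was not tested.

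Together with Psma8, the scaffolds Psmd1 and Psmd2 had the smallest spread of the members over all 9 libraries, LYT013 included. Psmd1 averaged 10.76 ± 0.072 in the YAP-deleted group and 10.79 ± 0.13 in the control group (SD, n = 4 and 5). Psmd2 averaged 11.27 ± 0.091 in the YAP-deleted group and 11.22 ± 0.16 in the control group. Neither group stood apart for either gene.

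The immunoproteasome genes were the class with the largest median difference, though none passed the threshold. Their median was 0.36 over 9 libraries and 0.15 over 7, with 5 of 5 positive in both. The mean level of the 5 genes was 9.93, 10.05 and 9.94 in the YAP-deleted libraries LYT006, LYT008 and LYT016, against 9.54, 9.93, 9.86 and 9.79 in the control libraries LYT004, LYT005, LYT015 and LYT017. The 3 YAP-deleted libraries lay above the 4 control libraries, with a narrow gap to LYT005. Control LYT004 was the lowest of the 7 for each class.

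The promoters of 3 immunoproteasome genes and of 2 of the standard subunits they stand beside are shown, because Psmb8, Psmb9 and Psme1 lay above the range of the 7 libraries in LYT014 and Psmb5 and Psmb6 did not. Psme4 also lay above that range, and its promoter is not shown, nor are those of Psmb10 and Psme2. Each promoter runs from 250 bases before the annotated start to 50 bases after it, 5′ to 3′ on the gene's strand, from RefSeq on GRCm38.p6. Capitals mark matches to 4 motifs searched on both strands. Psmb8 (chr17:34197945-34198244, plus strand) holds TTCNNNGAA, the core of the gamma-activated site, at -97. Psmb9 (chr17:34187281-34187580, minus strand) holds CCAAT on the opposite strand at -8. Psme1 (chr14:55578244-55578543, plus strand) holds GAAANNGAAA, the core of the interferon-stimulated response element, on the opposite strand at position 9. Psmb5 (chr14:54617946-54618245, minus strand) and Psmb6 (chr11:70525107-70525406, plus strand) hold TGACNNNGC, the core of the antioxidant response element, at -47 and -9.
Psmb8: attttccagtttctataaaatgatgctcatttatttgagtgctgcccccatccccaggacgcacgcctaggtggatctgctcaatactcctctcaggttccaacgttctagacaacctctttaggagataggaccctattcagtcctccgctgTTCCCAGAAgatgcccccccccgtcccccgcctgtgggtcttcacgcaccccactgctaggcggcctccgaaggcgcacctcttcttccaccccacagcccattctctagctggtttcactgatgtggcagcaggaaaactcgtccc
Psmb9: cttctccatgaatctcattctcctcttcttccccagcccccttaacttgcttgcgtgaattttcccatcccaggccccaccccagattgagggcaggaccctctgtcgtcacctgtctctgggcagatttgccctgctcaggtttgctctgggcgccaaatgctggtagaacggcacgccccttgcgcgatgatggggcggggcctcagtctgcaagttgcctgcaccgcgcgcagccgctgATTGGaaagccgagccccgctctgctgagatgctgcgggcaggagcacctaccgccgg
Psme1: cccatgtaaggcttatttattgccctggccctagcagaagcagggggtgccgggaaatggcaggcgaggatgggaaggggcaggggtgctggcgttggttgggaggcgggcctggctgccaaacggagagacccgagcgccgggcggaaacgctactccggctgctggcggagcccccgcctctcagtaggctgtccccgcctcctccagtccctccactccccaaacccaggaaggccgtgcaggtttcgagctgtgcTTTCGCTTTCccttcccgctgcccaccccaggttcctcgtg
Psmb5: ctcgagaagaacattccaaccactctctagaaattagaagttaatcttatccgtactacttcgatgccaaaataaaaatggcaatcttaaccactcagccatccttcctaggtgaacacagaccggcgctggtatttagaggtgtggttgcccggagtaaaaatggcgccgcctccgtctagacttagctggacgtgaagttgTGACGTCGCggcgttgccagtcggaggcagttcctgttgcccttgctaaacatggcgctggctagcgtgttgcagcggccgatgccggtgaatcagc
Psmb6: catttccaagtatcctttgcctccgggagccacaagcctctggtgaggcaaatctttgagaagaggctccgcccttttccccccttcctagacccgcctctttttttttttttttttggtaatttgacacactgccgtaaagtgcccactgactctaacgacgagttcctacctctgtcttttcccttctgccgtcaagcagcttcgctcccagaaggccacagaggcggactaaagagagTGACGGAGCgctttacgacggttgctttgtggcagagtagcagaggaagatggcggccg

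The table held a promoter for 38 of the 45 members and for 27025 genes in all. GAAANNGAAA stood in 4 members (Psmb3, Psmd4, Psmd9 and Psme1), 10.5% of the 38, and in 3.99% of all promoters. By class it stood in 1 of 5 immunoproteasome genes and 3 of 28 core and cap genes, while Psmb10 and Psme2 held none of the 4 motifs. TTCNNNGAA stood in 2 members (Psmb8 and Psmd2), 5.26%, and in 9.55% of all. TGACNNNGC stood in 6 members (Psmb5, Psmb6, Psmc6, Psmd9, Psmd12 and Psme4), 15.8%, and in 13.99% of all. CCAAT stood in 15 members, 39.5%, and in 41.1% of all. Matches to different motifs did not overlap in any member. A match is a description of the letters in this window only.

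Psmb9 had the most positive 7-library difference of the 45 members. Its level was 9.14, 9.19 and 9.07 in the YAP-deleted libraries LYT006, LYT008 and LYT016, against 8.70, 9.04, 8.91 and 8.72 in the control libraries LYT004, LYT005, LYT015 and LYT017. Every YAP-deleted library lay above every control library, with the smallest gap between LYT016 and LYT005. The difference was 0.29 (SE 0.11, unadjusted p = 0.0249, limma adjusted p = 0.720). As labelled, LYT013 stood at 9.70 and LYT014 at 9.55, and the difference over 9 libraries was 0.29 (SE 0.19, limma adjusted p = 0.653).

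Psmb10 stood at 10.33, 10.55 and 10.31 in the YAP-deleted libraries LYT006, LYT008 and LYT016, against 9.76, 10.27, 10.31 and 10.15 in the control libraries LYT004, LYT005, LYT015 and LYT017. The groups did not overlap, but LYT016 and LYT015 all but met and LYT004 was far below the rest. The difference was 0.27 (SE 0.14, limma adjusted p = 0.793) over 7 libraries. With LYT013 at 11.61 and LYT014 at 10.35 it was 0.53 (SE 0.25, limma adjusted p = 0.649), the largest of the 45 over 9 libraries.

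Psmb8 averaged 10.03 ± 0.068 in the YAP-deleted and 9.88 ± 0.093 in the control libraries of the 7 (SD, n = 3 and 4), a difference of 0.15 (SE 0.083, limma adjusted p = 0.809). Psme1 averaged 10.54 ± 0.034 in YAP-deleted and 10.42 ± 0.18 in control, and Psme2 averaged 9.77 ± 0.14 in YAP-deleted and 9.64 ± 0.27 in control. For Psmb8, Psme1 and Psme2 the groups overlapped. Psme2 in control LYT005 (9.98) was the highest of the 7 libraries.

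Levels of immune cell markers are given beside these values. All 11 macrophage and Kupffer cell markers were detected, and they summed to 1036, 1003 and 2405 normalised counts in the YAP-deleted libraries LYT006, LYT008 and LYT016, against 976, 692, 1465 and 1803 in the control libraries LYT004, LYT005, LYT015 and LYT017. Over the 7 libraries 10 of the 11 had a positive difference (median 0.18), and none was called. The 5 general leukocyte markers summed to 271, 173 and 420 in YAP-deleted and to 172, 124, 252 and 255 in control, while the lymphocyte markers together summed to at most 13.8 normalised counts. Their part in the result was not tested. In bulk samples, a change in the number of cells of a type and in RNA per cell cannot be told apart.

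The balance of each immunoproteasome catalytic subunit with the standard subunit it replaces was compared as a ratio of levels per length. Psmb8 over Psmb5 was 0.903, 0.874 and 0.8294 in the YAP-deleted libraries LYT006, LYT008 and LYT016, against 0.964, 0.745, 0.761 and 0.794 in the control libraries LYT004, LYT005, LYT015 and LYT017. Psmb9 over Psmb6 was 0.283, 0.274 and 0.261 in the YAP-deleted libraries, against 0.244, 0.231, 0.222 and 0.194 in control. The 2 groups did not overlap for this ratio. Psmb10 over Psmb7 was 1.36, 1.44 and 1.21 in the YAP-deleted libraries, against 0.888, 1.08, 1.30 and 1.10 in control, with LYT015 of the control group inside the YAP-deleted range.

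Of these 3 ratios, none passed the threshold. On the log2-like scale the 7-library differences, YAP-deleted minus control, were 0.094 for Psmb8 over Psmb5 (exact two-sided permutation p = 0.4), 0.26 for Psmb9 over Psmb6 (p = 0.0571) and 0.29 for Psmb10 over Psmb7 (p = 0.114). Adjusted over the 3 ratios, the exact permutation p-values were 0.4, 0.171 and 0.171. The design of 3 against 4 libraries cannot give a p below 0.0571. Over the 9 libraries as labelled the differences were 0.021 (p = 0.905), 0.00055 (p = 0.984) and 0.31 (p = 0.0635) by the same exact permutation test, and the last was 0.190 when adjusted over the 3. LYT013 and LYT014 pulled apart for Psmb9 over Psmb6, at 0.195 in LYT013 and 0.374 in LYT014, the largest of the 9.

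**Figure D3:**
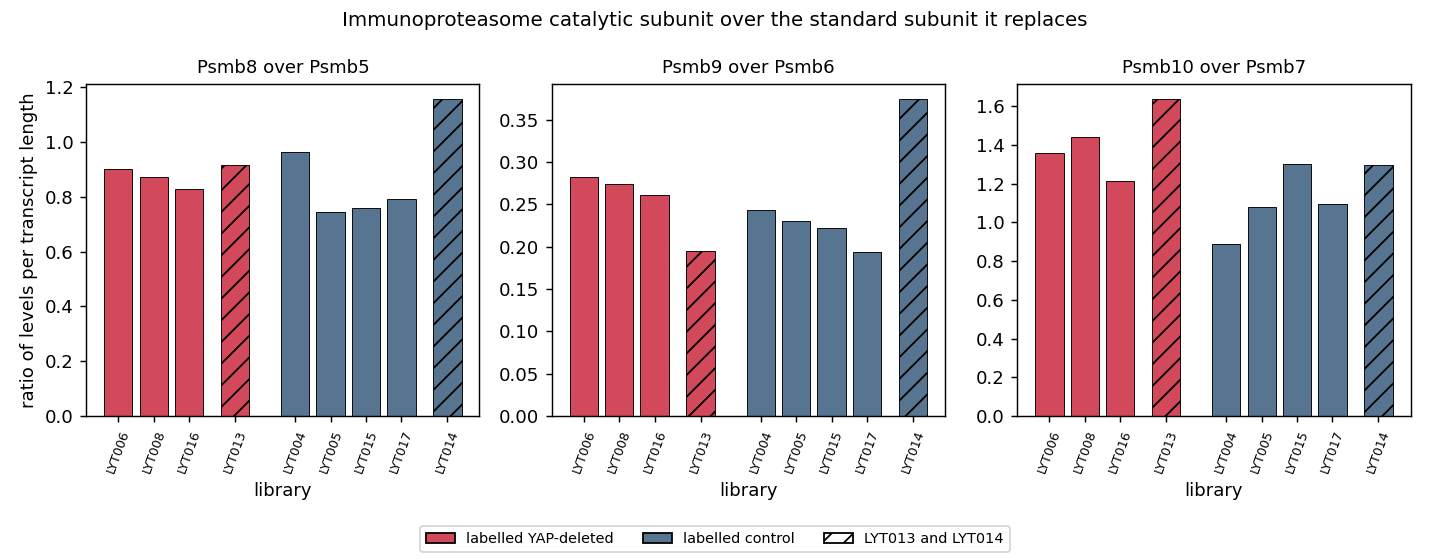
Ratio of level per transcript length of Psmb8 over Psmb5, Psmb9 over Psmb6 and Psmb10 over Psmb7 in each library (bars, from 0), with YAP-deleted libraries left of control libraries and LYT013 and LYT014 hatched. LYT014 has the highest ratio of Psmb8 (1.16) and Psmb9 (0.374), and LYT013 that of Psmb10 (1.63).

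The activators and relatives outside the 4 classes went in both directions without passing the threshold. Psme4, which caps the barrel in the nucleus, stood at 10.54, 10.42 and 10.64 in the YAP-deleted libraries LYT006, LYT008 and LYT016, against 10.87, 10.60, 10.74 and 10.63 in the control libraries LYT004, LYT005, LYT015 and LYT017. The difference was -0.18 over 7 libraries (SE 0.095, limma adjusted p = 0.799). With LYT013 at 10.32 and LYT014 at 10.88 it was -0.27 (SE 0.11, unadjusted p = 0.0294, limma adjusted p = 0.649). After the correction for length and GC content described below, Psme4 in LYT013 stood at 10.80. With that correction 0 members had an unadjusted limma p under 0.05 over 9 libraries. On the deposited values the ranges are as follows. The groups overlapped, since YAP-deleted LYT016 lay above control LYT005 and LYT017.

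Psme2b, a second locus of Psme2 whose reads may be shared with it, had the most negative difference over 9 libraries, at -0.44 (SE 0.21, limma adjusted p = 0.649), and -0.26 over 7 (SE 0.19, limma adjusted p = 0.868). It stood at 5.58 in LYT013, below every other library, while Psme2 in LYT013 was the highest of the 9. Over the 9 libraries Psme2b averaged 25.1 normalised counts in the YAP-deleted group and 46.1 in the control group. Psme2 averaged 1080 in the YAP-deleted group and 777 in the control group. The part of shared reads in the values of either gene was not tested. Psmc3ip was at -0.36 over 7 libraries (SE 0.21, limma adjusted p = 0.824). Psma8 and Psmb11 were low in every library, at 6.75 to 7.14 and 5.57 to 6.12.

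The library labelled YAP-deleted LYT013 had more of most of the shorter subunit transcripts. On the deposited scale 35 of the 45 members (77.8%) lay above the range of the other 7 libraries, where 28.2% of all 17203 genes did. Below that range lay 2 members, where 25.2% of all genes did. The 5 of 5 immunoproteasome genes, 7 of 7 standard beta genes, 7 of 8 alpha genes and 16 of 20 cap genes were above. The class means in LYT013 were 10.41 for the alpha ring, 10.94 for the standard beta ring, 10.46 for the cap and 10.98 for the immunoproteasome. The 7 libraries ranged over 9.46 to 9.73, 9.79 to 10.11, 9.82 to 10.11 and 9.54 to 10.05 for the same classes.

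Psmb10 was highest, at 2.55 times the median normalised count of the 7 libraries, followed by Psme2 at 2.46 times, Psma3 at 2.40 times, Psme1 at 2.22 times and Psmb8 at 2.196 times. Psmb9 was the lowest of the immunoproteasome genes, at 1.66 times. The 7 standard beta genes lay in a narrow band, between 1.87 times for Psmb2 and 2.14 times for Psmb3. The 7 alpha genes above the range ranged from 1.44 times (Psma1) to Psma3, and the 6 ATPases from 1.33 times (Psmc6) to 1.92 times (Psmc5). The lid scaffold Psmd11, at 10.02, was within the range of the 7 and below their median. The scaffolds Psmd1 and Psmd2, the chaperone Psmd5, and Psma8, Psmb11, Psmc3ip and Psme3 were also within the range. Psme4 and Psme2b were below it.

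**Figure D4:**
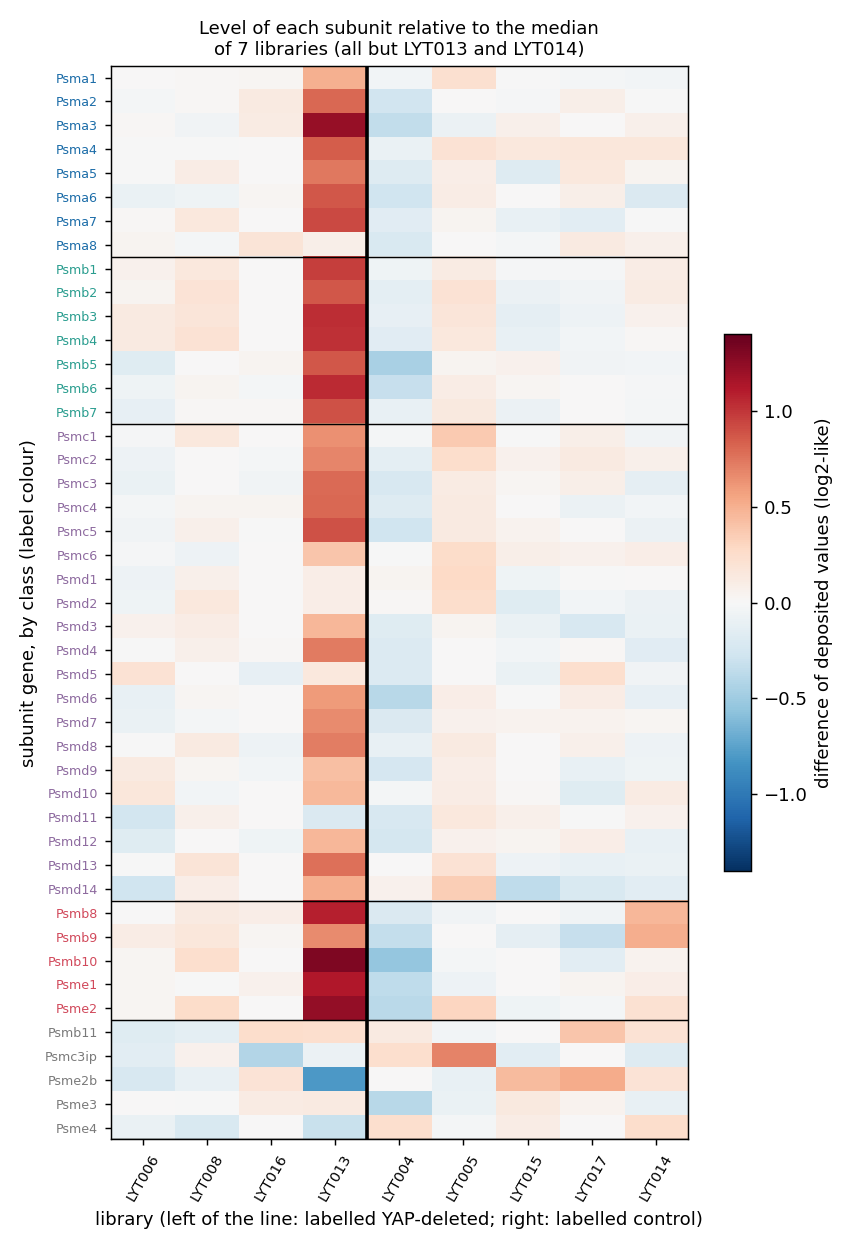
Level of each of the 45 genes (rows, label colour by class) in each library (columns, labelled YAP-deleted left of the thick line, labelled control right of it), as the difference from the median of the 7 libraries other than LYT013 and LYT014, on the log2-like scale. In LYT013 35 of 45 genes lie above the range of the 7, and in LYT014 Psmb8 and Psmb9 stand out, at 1.41 and 1.48 times the median of the 7.

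The departure of LYT013 followed transcript length. Against the median of the other 8 libraries, and over the tested genes at or above the median mean level, the median departure was 0.95 over the 493 genes with transcripts under 1000 bases, 0.66 from 1000 to 1500 bases, 0.43 from 1500 to 2000 bases, 0.16 from 2000 to 3000 bases, -0.19 from 3000 to 5000 bases and -0.60 over the 1801 genes above 5000 bases. The members ran in the same order, with medians of 0.93 (7 genes), 0.78 (15 genes), 0.65 (11 genes), 0.40 (8 genes) and 0.17 (3 genes), and -0.31 for Psme4 alone. Across the 45 members Spearman's rho between departure and length was -0.52, a description of genes measured in the same library. The cytosolic ribosomal proteins, which are short, had a mean level of 12.48 in LYT013, against 11.36 to 11.56 in the 7 libraries, and the oxidative phosphorylation subunits 10.29, against 9.15 to 9.43.

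After the values of each library were corrected for a smooth dependence on length and GC content, the class medians of the departure of LYT013 were 0.54 for the alpha ring, 0.61 for the standard beta ring, 0.40 for the cap and 0.73 for the immunoproteasome, where they had been 0.79, 0.94, 0.59 and 1.10. So corrected, 38 of the 45 members lay above the range of the 7 libraries, where 27.7% of all genes did. Psme4 moved from below that range to above it, at 10.80 in LYT013, while Psme2b stayed below it, at 5.29. Both a poly-A and a ribosomal depletion preparation are described in the labels. Which was used for which library is not stated there, and the part of preparation and depth in these values was not tested.

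**Figure D5:**
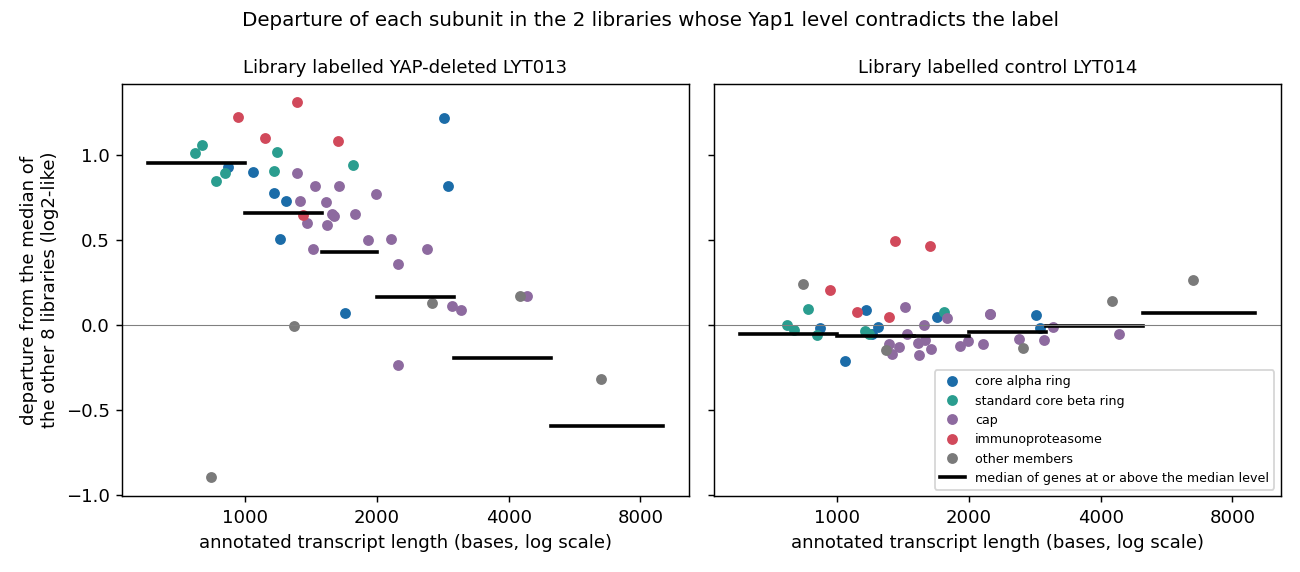
Departure of each of the 45 genes from the median of the other 8 libraries (log2-like) against annotated transcript length (bases, log scale) in the library labelled YAP-deleted LYT013 (left) and the library labelled control LYT014 (right), coloured by class; black lines are the medians, in each length range, of the tested genes at or above the median mean level. In LYT013 that median is 0.95 in the shortest range and -0.60 in the longest, and in LYT014 it stays between -0.064 and 0.069, with Psmb8 and Psmb9 the highest members.

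In the library labelled control LYT014 the members farthest above the median of the other 8 libraries were Psmb9 and Psmb8, with departures of 0.50 and 0.46. Of the 45 members 4 (Psmb8, Psmb9, Psme1 and Psme4) lay above the range of the other 7 libraries, 8.89% where 12% of all genes did, and 2 (Psma1 and Psmc1) lay below it, 4.44% where 9% of all genes did. Those counts are no larger than the share of all genes. Psmb8 was at 10.42 in LYT014, against 9.75 to 10.08 in the 7 libraries, and Psmb9 at 9.55, against 8.70 to 9.19. Psme1 was just above the range, at 10.60, and Psmb10 inside it. Psma6, Psmd14 and Psmd4 lay farthest below the median of the other 8 libraries, by departures of -0.21, -0.18 and -0.17. The class mean of the immunoproteasome was 10.16, against 9.54 to 10.05, while the means of the alpha ring (9.67), the standard beta ring (10.01) and the cap (9.91) lay within their ranges.

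Many interferon-responsive genes were high in both LYT013 and LYT014. Of 22 listed, 12 lay above the range of the 7 libraries in LYT013, where 28.2% of all genes did, and 12 in LYT014, where 12% did. Below the range lay 2 of the 22 in LYT013, where 25.2% of all genes did, and 0 in LYT014, where 9% did. Their mean level was 10.55 in LYT013 and 10.75 in LYT014, against 9.79 to 10.32 in the 7 libraries. Irf1, the transcription factor that drives several of them, stood at 13.94 in both LYT013 and LYT014, against 11.42 to 12.10 in the 7 libraries. Cxcl9, a chemokine induced by interferon gamma, was at 9.62 in LYT014 and 7.65 in LYT013, against 6.95 to 7.42, and Gbp2, a guanylate-binding protein, at 11.77 and 11.07, against 10.33 to 10.61. Of 7 liver endothelial markers, all detected, 1 was above the range in LYT013 and 5 in LYT014. Their sum was 3876 normalised counts in LYT013 and 3984 in LYT014, against 941 to 3015 in the 7 libraries. Of the 5 leukocyte markers 1 was above the range in LYT013 and 2 in LYT014, where Cd74 was at 8.65 and H2-Aa at 7.42, and of the 11 macrophage markers 1 was above it in LYT013 and 2 in LYT014. Of 6 hepatocyte markers 3 were above and 1 below the range in LYT013, and 5 were below it in LYT014. Their sum was 1164 normalised counts in LYT013 and 319 in LYT014, against 523 to 993 in the 7 libraries. The part of these genes and markers in the values of Psmb8 and Psmb9 was not tested.

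Factors that assemble and serve the proteasome did not pass the threshold between the groups. Of 29 such genes tested, 0 were called in either set of libraries, and over the 7 libraries 17 were positive and 12 negative, with a median of 0.044. Pomp, the maturation factor of the core, was at 10.50 in LYT013, against 9.23 to 9.64 in the 7 libraries, and Sem1, a small subunit of the lid that the name rule does not reach, at 10.99, against 9.33 to 9.89. Nfe2l1, the transcription factor that restores proteasome genes when the proteasome is impaired, had a difference of 0.11 over 7 libraries (SE 0.14, limma adjusted p = 0.935). Of the genes listed, 14 lay above the range of the 7 libraries in LYT013, where 28.2% of all genes did, and 8 below it, where 25.2% did.

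The genes that take proteasome products to the cell surface were tested as a list of 13 for major histocompatibility complex class I. None was called. Over the 7 libraries 10 were positive and 3 negative (median 0.20), and in each of the libraries LYT013 and LYT014 6 of the 13 lay above the range of the 7, where 28.2% of all genes did in LYT013 and 12% in LYT014. H2-T23, a non-classical class I molecule, stood at 12.22, 11.96 and 12.17 in the YAP-deleted libraries LYT006, LYT008 and LYT016, against 11.54, 11.46, 11.83 and 11.78 in the control libraries LYT004, LYT005, LYT015 and LYT017. Tap2, which forms the peptide transporter with Tap1, was at 11.03, 10.95 and 10.91 in YAP-deleted, against 10.39, 10.53, 10.72 and 10.68 in control. Every YAP-deleted library lay above every control library for both, as for 3.93% of all genes over the 7 libraries. The differences were 0.47 (SE 0.12) and 0.38 (SE 0.098), with a limma adjusted p of 0.524 for both, the smallest of the list. Over 9 libraries they were 0.34 (SE 0.20) and 0.37 (SE 0.13), with a limma adjusted p of 0.649 for both. The interferon-responsive list had 7 positive and 15 negative of 22 (median -0.045), with 0 called. The smallest p of that list belonged to Ifit2 in both sets of libraries. Its difference was -0.43 over 7 libraries (SE 0.15, limma adjusted p = 0.684) and -0.43 over 9 (SE 0.14, limma adjusted p = 0.649).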

How the data were processed

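Bulk RNA sequencing libraries of sorted stellate cells were grouped by their titles. The submitters' processing notes name the tools kallisto 0.44.0, sleuth and bcl2fastq 2.20 and the builds GRCm38, GRCh38 and mm10, without saying what each was for. The authors deposited 1 variance-stabilised log2-like value per gene and library, with a lowest value of 4.96. The step behind it was not given in the sources used here. Inverting its inverse hyperbolic sine form gave whole counts to within 0.1 for 100% of values above the lowest in every library, so these recovered counts set the depth. For genes with few counts a log2-like difference is smaller than the true log2 change. The column for LYT013 was headed LYT013.1, with no reason stated.

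A gene was tested if 4 or more libraries exceeded the lowest value, with limma 3.58.1 in R 4.3.3 (group model, moderated errors with a mean-variance trend, two-sided, Benjamini-Hochberg over all genes, threshold 0.05). The same model was also run on simulated counts with known changes, which held no library that departs as LYT013 does. Ratios used exact permutation tests in scipy 1.17.1. Lengths, GC content and positions came from GENCODE M21 on GRCm38, and 34802 names had a length. The trend in length and GC used mgcv 1.9.3. The position of a promoter match is the distance in bases from the annotated start to the first marked base as printed, negative before the start.

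The members, lists, tests and the 2 libraries set apart were chosen with earlier results of these data known. Named genes were the immunoproteasome and standard catalytic genes, the 3 members per direction with the smallest p in each set of libraries, the extremes of level, spread and departure in LYT013 and LYT014, and up to 4 genes per list. Psmd7, Psmd5, Psmd9, Psmd10 and others named for their role were added after their values were seen. Alternatives covered filters, scaling, transformation, moderation, library weights, covariates and each library left out. Fits within ranges of library codes, and class levels with the length trend removed, were added after seeing the data. Library numbers limit the precision.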

Additional observations from a re-analysis of the deposited data

Results flagged for a closer look

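In 14 comparisons the library labelled YAP-deleted LYT013 stood far above the other 3 libraries of its group. The class means there were 10.41 for the core alpha ring, 10.94 for the standard core beta ring, 10.46 for the cap and 10.98 for the immunoproteasome. Among single genes it stood at 11.48 for Psma3, 10.91 for Psma6, 10.80 for Psma7, 11.23 for Psmb6, 10.75 for Psmb7, 11.04 for Psmb8, 11.75 for Psmc3, 10.57 for Psmc6, 10.84 for Psmd4 and 11.63 for Psme1. Control LYT004 stood far below the other 4 control libraries for Psmb5, at 9.01, and Psmb6, at 9.85. Each met Dixon's criterion at 95%, which chance alone meets in about 1 in 20 groups, and 62 groups were examined. Some of these genes were named for their spread or for their departure in LYT013, and the groups share libraries. The number flagged can therefore not be set against that rate. LYT013 was also the deepest library and its Yap1 level went against its label, and the part of either in these values was not tested.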

How the results depend on the processing

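No proteasome gene was called under any alternative run, over 9 or 7 libraries, and 0 of 984 refitted differences of the 24 named members passed the threshold (smallest adjusted p 0.392). The count of all genes called moved. It was 0 over 9 libraries, but 4 within library codes 4 to 8 and 11 without LYT013 and LYT014. Over 7 libraries it was 11, but 25 with the library code and 2 with the ribosomal protein mean as a covariate, and 2 to 10 with single libraries left out. With the length and GC trend removed, the class means of LYT013 exceeded the median of the other libraries by 0.57 (alpha ring), 0.60 (standard beta ring), 0.36 (cap) and 0.68 (immunoproteasome), where they had exceeded it by 0.74, 0.96, 0.53 and 1.05.

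Since no difference of a member was called in any fit, the sign changes below all concern uncalled differences. Their cause was not tested. Over 9 libraries, codes 13 to 17 gave 0.046 for Psmb11, 0.11 for Psmc6 and 0.064 for Psmd1, and codes 4 to 8 gave -0.066 for Psmb7, -0.29 for Psmd14 and -0.088 for Psmd2. The ribosomal covariate gave -0.029 for Psma6, -0.0013 for Psmb5, -0.030 for Psmb6, -0.055 for Psmb7, -0.0016 for Psmb8, -0.065 for Psmc3 and -0.030 for Psmd14. The length and GC trend gave 0.043 for Psmc6 and 0.039 for Psmd1. Without LYT013 and LYT014, Psma6 was at -0.018, Psmb7 at -0.015, Psmc3 at -0.047 and Psmd14 at -0.018. Over 7 libraries, library weights gave -0.021 for Psmb5, -0.0045 for Psmb6 and 0.026 for Psmd14. The ribosomal covariate gave -0.015 for Psmb6 and -0.020 for Psmd2. The length and GC trend gave 0.0098 for Psma6, -0.0095 for Psmb5, -0.025 for Psmb6 and 0.032 for Psmd14.

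With single libraries left out, the 9-library differences ran from -0.012 to 0.32 for Psmb7, -0.023 to 0.27 for Psmc3, -0.13 to 0.024 for Psmc6 and -0.055 to 0.028 for Psmd1. The 7-library differences ran from -0.10 to 0.026 for Psma6, -0.061 to 0.12 for Psmb5, -0.061 to 0.083 for Psmb6, -0.047 to 0.036 for Psmb7, -0.10 to 0.011 for Psmd1, -0.13 to 0.039 for Psmd11, -0.12 to 0.11 for Psmd14 and -0.044 to 0.094 for Psmd2. The 9-library log2 ratios ran from -0.032 to 0.12 for Psmb8 over Psmb5 and from -0.076 to 0.14 for Psmb9 over Psmb6. No paired analysis was possible because the labels give no pairing of libraries. With 3 to 5 libraries a group, differences within the spread between libraries could not be detected.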
